A study of Mus musculus with 32 samples.

Results

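The interferon-stimulated genes are 39 mouse genes, from *Stat2* and *Irf9* to *Oas2*, *Mx1* and *Isg15*. They were taken by symbol from a fixed list, with no cut on their values. The list was chosen with earlier results of these data known. Of the 39 genes, 38 were found in the Lin- RNA-seq table of 26560 genes. All 39 were found in the CD11b+ table of 25887 genes, out of 28827 genes in either table. *Igtp* had no row in the Lin- table. The study asked what the RNA-binding protein IGF2BP3 does in leukemia driven by the MLL-Af4 fusion, and the series holds 32 libraries. Lin- cells were lineage-depleted mouse bone marrow cells infected with a retrovirus that carries MLL-Af4, selected with G418 and grown in culture. CD11b+ cells were selected on beads from splenic tumors of mice transplanted with MLL-Af4 cells. For RNA-seq, each cell type had 3 libraries of WT/MLL-Af4 and 3 of I3KO/MLL-Af4 cells, where I3KO is a germline deletion of *Igf2bp3* that arose from leaky Vav1-Cre, and the RNA-seq and eCLIP labels name no treatment beyond these steps. IGF2BP3 eCLIP was made from WT/MLL-Af4 cells, with 6 Lin- libraries (3 biological and 3 technical) and 4 CD11b+ libraries (2 biological and 2 technical). Each has a size-matched input (smInput), 10 in all. By the study's methods, donors and recipients of the transplants were young adult female mice, donor marrow was enriched with 5-FU and recipients were lethally irradiated. The labels give no ages, and the names of the CD11b+ eCLIP libraries start with bm, as the Lin- ones do, which leaves unclear whether those cells came from marrow or spleen. All cells thus carried MLL-Af4, and none came from a normal control.

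Interferons bind receptors on the cell surface and activate the kinases JAK1 and TYK2, which phosphorylate STAT proteins, STAT2 among them. STAT2 and IRF9 are parts of the factor ISGF3, which binds the interferon-stimulated response element (ISRE), a pair of GAAA boxes, and switches on genes whose products sense viral RNA, block viral replication or damp the response. IGF2BP3 is an oncofetal RNA-binding protein known for binding CA-rich RNA. In eCLIP, RNA crosslinked to IGF2BP3 is immunoprecipitated, trimmed and sequenced, and a peak is a short stretch of a transcript where reads pile up. Peaks that overlap a peak of the smInput were removed by the authors, and the remaining ones are called filtered peaks below.

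The ISRE was looked for first, in RefSeq promoters of GRCm38.p6 running from 250 bases before to 50 after the start site. Of the 39 genes, 30 had a promoter in the table. A pair of GAAA boxes with 2 bases between them, on either strand, was found in 18 of these 30 promoters (60%) and in 943 of 27025 promoters of all genes (3.49%). Stretches of 30 bases from 3 genes whose transcripts also carried IGF2BP3 peaks show the pair, with both boxes in capitals. TTTC is the same box read on the other strand.
*Bst2* promoter, chr8:71537583-71537612, minus strand: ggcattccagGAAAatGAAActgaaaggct
*Eif2ak2* promoter, chr17:78882535-78882564, minus strand: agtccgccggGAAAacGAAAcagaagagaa
*Trim30a* promoter, chr7:104465210-104465239, minus strand: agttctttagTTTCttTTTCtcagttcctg
The centre of the pair lay 125 bases before the start of *Bst2*, 31 bases before that of *Trim30a* and 23 bases after that of *Eif2ak2*. Among the genes without the pair in this window were *Irf1*, *Irf7*, *Irf9* and *Samhd1*. No promoter entry was found for *Iigp1*, *Mx1*, *Mx2*, *Oas2*, *Parp14*, *Parp9*, *Rtp4*, *Usp18* and *Zbp1*.

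IGF2BP3 peaks on these transcripts were of a few kinds, which the following genomic stretches of GRCm38 (mm10) show. The first set holds sites found in 3 or more libraries, each at a splice junction, with exon bases in capitals and intron bases in lower case.
*Eif2ak2*, chr17:78855247-78855276, minus strand: acctatcattaacagAAAAGCCTTCTAAAA
*Trim30a*, chr7:104429337-104429366, minus strand: ttcctacccatgaagAACCAAATACAGATC
*Bst2*, chr8:71535811-71535840, minus strand: cttgtgtcatcgcagATGAAGTCACGAAGC
*Irf9*, chr14:55607841-55607870, plus strand: CCTACTTCTGTAGAGgtaagggtgtcccag
*Irf7*, chr7:141265362-141265391, minus strand: GCACAGATCTTCAAGgtggtacccagtcct
*Samhd1*, chr2:157099489-157099518, minus strand: ctctctctctaatagGATGGTGACATTATA
The second set holds intronic CA repeats under peaks, with each CACA in capitals.
*Samhd1*, chr2:157101210-157101239, minus strand: attgcccgCACACACACAagaCACAtatac
*Oas2*, chr5:120743536-120743565, minus strand: ttCACActCACACACActctacattCACAt
*Parp14*, chr16:35843681-35843710, minus strand: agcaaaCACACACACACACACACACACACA
The *Eif2ak2*, *Trim30a*, *Bst2* and *Samhd1* stretches of the first set end an intron, and those of *Irf9* and *Irf7* begin one.

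The depth of the eCLIP libraries is unknown, and filtered peaks stood in for it, at 4040 to 10054 per library. The smInput libraries held 217 to 1885 peaks. Libraries of 1 cell type shared the exact ends of at most 2.22% of the smaller library's peaks, so none repeated another. Labelled cell types were checked against markers by the authors' mean normalized count, which is 1 value per gene over the WT and I3KO libraries of a cell type, with no spread. Progenitor genes were high in Lin- cells, where the 6 of them ranged from 2452.5 (*Meis1*) to 101212 (*Mpo*). In CD11b+ cells *Kit*, *Cd34*, *Flt3* and *Meis1* stood lower, at 356 to 1291, whereas *Mpo* (84102) and *Myb* (37516, beside 22676 in Lin- cells) were high there too and do not separate the cell types. *Itgam*, which encodes CD11b, stood at only 17.0 in CD11b+ cells and had no row in the Lin- table, although its transcript carried 23 filtered peaks over the 4 CD11b+ eCLIP libraries. The other 5 myeloid markers ranged from 1742 (*Cd14*) to 72146 (*Lyz2*) in CD11b+ cells. Those 5 were also present in Lin- cells, at 582 to 20990. The plasmacytoid dendritic cell genes *Siglech*, *Tcf4* and *Ly6d* stood at 5631, 8504 and 352 in Lin- cells and 74.7, 1899 and 29.3 in CD11b+ cells. The 3 B cell markers lay between 69.1 and 146 in CD11b+ cells and between 1.10 and 5.77 in Lin- cells, *Hba-a1* stood at 1268 in CD11b+ cells and 5.85 in Lin- cells, and the T and NK cell markers did not exceed 14.8 in either.

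The interferon-stimulated genes were expressed at a wide range of levels and their median lay below the middle of the genes with at least 10 normalized counts, though above the middle when every listed gene was ranked. Of the 38 genes in the Lin- table, 37 had a mean of at least 10 normalized counts, and their median lay at percentile 37.3 of the 16673 genes at that level. In CD11b+ cells, 37 of 39 genes passed 10 normalized counts, with a median percentile of 46.9 among 16191 genes. Ranked among all genes of each table, including those near 0, the medians were 60.3 in Lin- and 64.1 in CD11b+ cells. Above the median expressed gene lay 12 of the 37 genes in Lin- cells and 18 of the 37 in CD11b+ cells. *Iigp1*, an immunity-related GTPase, was below 10 normalized counts in both, at 3.76 and 2.86. *Ifi44* stood at 53.1 normalized counts in Lin- cells and 1.02 in CD11b+ cells. Levels have no error here, since only the mean over both genotypes was used, and in bulk samples fewer cells of a type and less RNA per cell cannot be told apart.

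Per kb of annotated exon, *Bst2* (tetherin, which holds budding virions at the cell surface) had the highest mean level in Lin- cells, at 2575 normalized counts per kb. *Samhd1*, a dNTP hydrolase that limits retroviral reverse transcription, followed at 890.3 normalized counts per kb. The next were *Irf1* at 497, *Stat2* at 441 and *Irgm1* at 437 normalized counts per kb in Lin- cells. In CD11b+ cells *Samhd1* led at 938 normalized counts per kb, followed by *Oas1a* at 875, *Bst2* at 692, *Ifi35* at 411 and *Irf9* at 346. Whether neighbors in these orders differ beyond their spread could not be judged without values per library.

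Between the cell types, normalized separately, ranks were compared and not counts. Of the 36 genes with a percentile in both, 22 stood at a higher percentile in CD11b+ cells, and the median shift was 2.33 points. Over the 14658 genes ranked in both, 40.1% stood higher in CD11b+ cells and the median shift was -2.56 points. Of the 36, 6 (16.7%) differed by over 20 points, close to the 17.5% of all genes. *Oas1a*, an oligoadenylate synthetase that senses double-stranded RNA, stood at percentile 45.7 in Lin- cells and 82.7 in CD11b+ cells. Its relative *Oas2* stood at 33.6 and 63.1. The chemokine *Cxcl10* stood at 2.11 and 28.4, the Z-form nucleic acid sensor *Zbp1* at 19.7 and 42.6, and the GTPase gene *Gbp3* at 44.5 and 66.7. Of the 6, *Bst2* alone differed the other way, at percentile 78.8 in Lin- cells and 58.1 in CD11b+ cells. *Bst2* is also a plasmacytoid dendritic cell gene, and *Siglech*, *Tcf4* and *Ly6d* were likewise higher in the Lin- table, as given above. The part of such cells in its level was not tested. Reads of *Oas1a* can be shared with its close paralogs, and those of the *Gbp*, *Ifit* and *Mx* genes with each other, so their values are less certain. In the plot of levels, most points lie along the diagonal, with *Oas1a*, *Oas2*, *Zbp1* and *Cxcl10* above it and *Ifi44* far below.

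**Figure D1:**
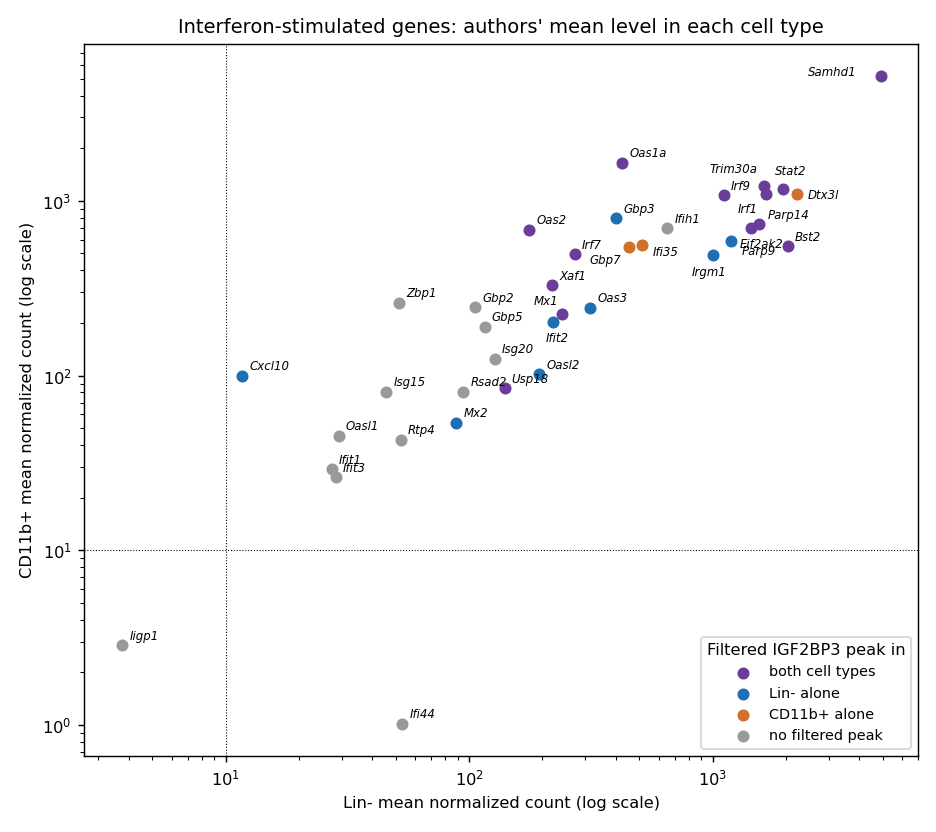
Mean normalized count of each interferon-stimulated gene in Lin- cells (horizontal, log scale) and CD11b+ cells (vertical, log scale), 1 point per gene, without *Igtp*. Colors give the cell types with a filtered IGF2BP3 peak, and dotted lines mark 10 normalized counts. The 7 genes with a CD11b+ mean of at least 1000 had a CD11b+ peak each, and *Iigp1* and *Ifi44*, under the horizontal line, had none in either cell type.

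The eCLIP question was which of these transcripts IGF2BP3 bound in each cell type. A filtered peak in any library was found on 22 of the 39 genes in Lin- cells and on 17 in CD11b+ cells. With peaks in both cell types were 14 genes: *Bst2*, *Eif2ak2*, *Irf1*, *Irf7*, *Irf9*, *Mx1*, *Oas1a*, *Oas2*, *Parp14*, *Samhd1*, *Stat2*, *Trim30a*, *Usp18* and *Xaf1*. In Lin- cells alone were *Cxcl10*, *Gbp3*, *Ifit2*, *Irgm1*, *Mx2*, *Oas3*, *Oasl2* and *Parp9*, and in CD11b+ cells alone *Dtx3l*, *Gbp7* and *Ifi35*. Of the 36 genes with at least 10 normalized counts in both tables, peaks in both cell types were thus found on 38.9%, in Lin- cells alone on 22.2% and in CD11b+ cells alone on 8.33%, beside 29.2%, 14.8% and 11.02% of all 14658 such genes. Among genes with a peak in either, 56.0% of the interferon-stimulated and 53.0% of all genes had one in both. No filtered peak was found on 14 genes, among them *Isg15*, which encodes the ubiquitin-like modifier, *Ifih1*, the RNA sensor MDA5, *Ifit1*, *Ifit3*, *Rsad2* and *Zbp1*. With depth unknown, the lack of a peak does not show that IGF2BP3 left a transcript unbound. Of the 37 genes with at least 10 normalized counts, 59.5% had a peak in Lin- cells, where 39.8% of all genes at that level had one. In CD11b+ cells the shares were 45.9% of the 37 genes and 37.1% of all genes. Counting only peaks in at least 2 biological libraries, the Lin- share was 35.1% (13 genes) beside 21.0% of all genes. The CD11b+ share was then 16.2% (6 genes) beside 15.3%, close to the background. No test was made of these shares.

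A peak was found more often on abundant transcripts, and the shares were therefore also set side by side within bands of level. Between 10 and 100 normalized counts, a peak was found on 2 of 10 interferon-stimulated genes (20%) in Lin- cells and on 7.02% of all genes. Between 100 and 1000, it was found on 10 of 16 (62.5%) and 25.2% of all genes, and from 1000 on, on 10 of 11 (90.9%) and 76.5% of all genes. *Dtx3l*, with a mean of 2227 normalized counts, was the 1 gene of the top Lin- band without a peak. In CD11b+ cells the shares of interferon-stimulated genes were 1 of 10, 9 of 20 (45%) and 7 of 7, beside 9.66%, 35.0% and 68.4% of all genes. The median annotated length of the genes at 10 or more normalized counts was 15.3 kb for the interferon-stimulated and 17.7 kb for all genes in the Lin- table. It was 14.7 kb and 16.0 kb in the CD11b+ table.

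**Figure D2:**
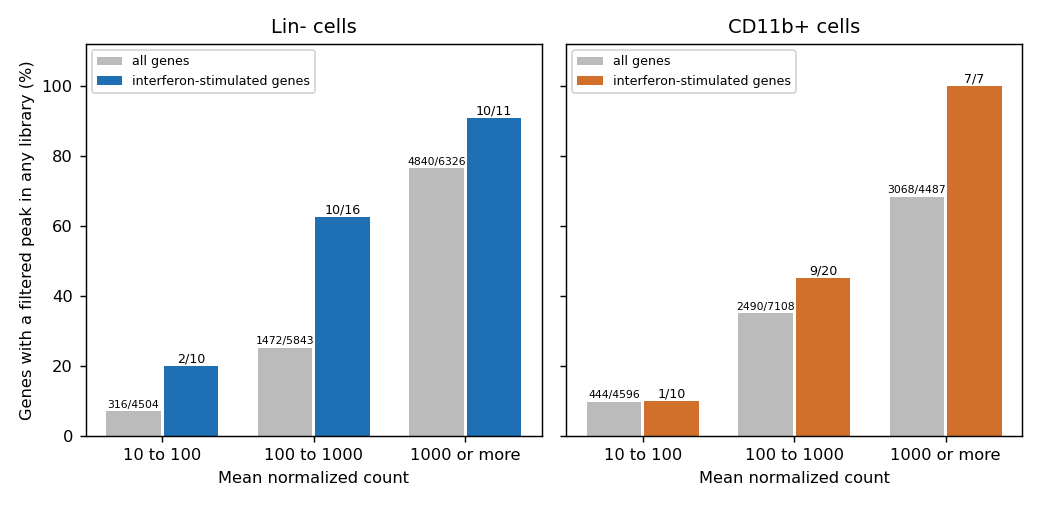
Percent of genes with a filtered IGF2BP3 peak in at least 1 library, by band of mean normalized count, for all genes (gray) and interferon-stimulated genes (colored), with counts above the bars. The colored bar is above the gray one in each band and cell type, by the least between 10 and 100 normalized counts in CD11b+ cells (1 of 10 genes).

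These shares rested on some libraries more than others. Per Lin- biological library, 5, 14 and 19 interferon-stimulated genes had a filtered peak (mean 12.7 ± 7.09, SD, n = 3), and in the technical Lin- libraries 1, 7 and 13 had one. The CD11b+ biological libraries gave 16 and 7 genes (mean 11.5 ± 6.36, SD, n = 2) and the technical ones 11 and 3. The groups overlapped, and the difference of CD11b+ minus Lin- was -1.17 genes per library (two-sided exact permutation test over 10 divisions, p = 0.9, adjusted p over the 5 tests of this kind 0.9, where 0.1 is the smallest p this design allows). As a percent of all genes with a peak in the same library, the interferon-stimulated genes took 0.130, 0.277 and 0.423% in the Lin- and 0.383 and 0.144% in the CD11b+ biological libraries, a difference of -0.0133 points (two-sided exact permutation test, p = 0.9, adjusted p 0.9). Both differences turned positive without Lin- replicate 3, to 2 genes and 0.0600 points, and without CD11b+ replicate 2, to 3.33 genes and 0.106 points. With the biological libraries alone, leaving out Lin- replicate 3 lowered the number of Lin- genes with a peak from 20 to 14, and leaving out CD11b+ replicate 1 lowered that of CD11b+ cells from 17 to 7.

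Set against all expressed genes in the same library, the share of interferon-stimulated genes with a peak was higher in 6 of 10 libraries and lower in 4. It was 51.4% beside 23.6% in Lin- replicate 3 and 43.2% beside 22.4% in CD11b+ replicate 1. In Lin- replicate 1 it was 13.5% beside 20.3%, and in CD11b+ replicate 2 it was 18.9% beside 24.4%. The higher pooled share was therefore not present in each biological replicate.

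**Figure D3:**
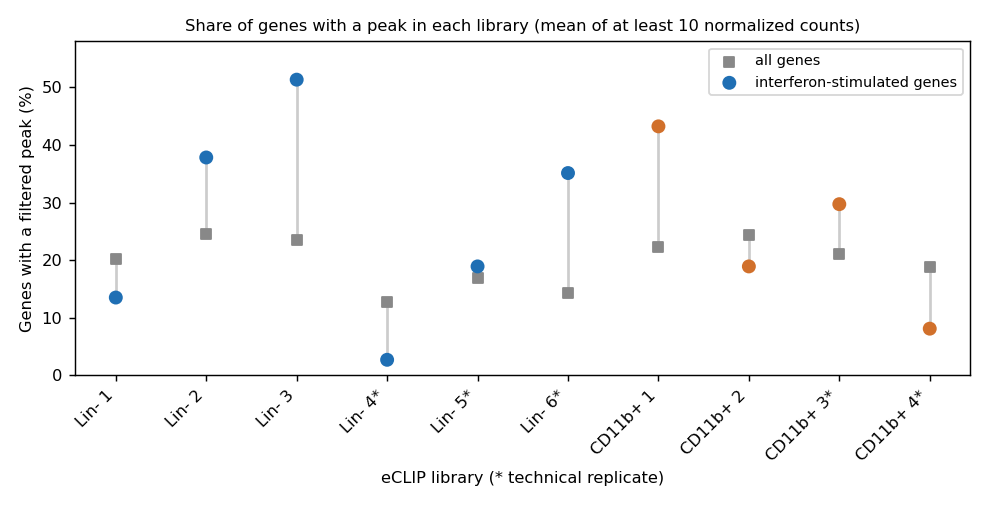
Percent of genes with at least 10 normalized counts that had a filtered peak in each eCLIP library, for all genes (gray squares) and the 37 interferon-stimulated genes (circles, blue for Lin- and orange for CD11b+). The circle lies above the square in 6 libraries and below it in Lin- 1 and 4 and CD11b+ 2 and 4.

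The smInput served as the background. Before the filter, the 10 eCLIP libraries held 179 peaks on interferon-stimulated genes, and the filter removed none of them, while it removed 15.5% of the 88005 eCLIP peaks of all genes. In 8 of 10 smInput libraries no interferon-stimulated gene had a peak. The other two held 1 peak each, of 4 reads on *Irf9* in Lin- input 2 and of 3 reads on *Eif2ak2* in CD11b+ input 4, neither of them at an eCLIP peak. Over the 5 biological numbers, 12.2 ± 5.97 genes (SD) had an eCLIP peak and 0.200 ± 0.447 an smInput peak, higher in eCLIP in 5 of 5. The difference of 12 genes (two-sided exact permutation test within cell type, p = 0.0167, adjusted p = 0.0417) is not read further, because inputs held far fewer peaks and a raw count of genes follows their number. In a paired comparison, with signs of the 5 differences flipped, the exact p was 0.062, the smallest that 5 pairs can give. Leaving out any 1 number gave differences of 10.25 to 13.75 genes and exact p of 0.05 to 0.0556. As a percent of the genes with a peak, the values were 0.251 ± 0.124% in eCLIP and 0.0184 ± 0.0412% in smInput, a difference of 0.233 points with the same exact permutation p of 0.0167 and adjusted p of 0.0417. Dividing by the genes with a peak need not remove the effect of fewer peaks, since a peak was found more often on abundant transcripts. The interferon-stimulated genes had median percentiles of only 37.3 in Lin- and 46.9 in CD11b+ cells. The share is therefore not read as binding above input. It is also coarse in the inputs, where 1 gene in Lin- input 2 was worth 0.0922%. Inputs were called under other deduplication settings, as the file headers show, and the part of that in the difference was not tested.

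Among the transcription factors, *Stat2*, *Irf9*, *Irf7* and *Irf1* all carried peaks in both cell types, at 27 sites, where a site is a group of overlapping peaks over all libraries. Of all 14658 genes with at least 10 normalized counts in both tables, 29.2% had peaks in both. That share covers all levels, whereas *Stat2*, *Irf9* and *Irf1* had means above 1000 normalized counts in both tables. From 1000 on, a peak was found on 76.5% of all genes in Lin- and 68.4% in CD11b+ cells. *Irf7* lay between 100 and 1000 in both tables, where the shares were 25.2% and 35.0%. The part of level in the peaks on these transcription factors was not tested. *Irf1*, a transcription factor induced by interferon gamma, had 13, 4 and 21 reads in peaks in the Lin- biological libraries and 6, 12 and 0 in the technical ones, where 0 means no peak. In CD11b+ cells *Irf1* had 16 and 0 reads in the biological and 6 and 0 in the technical libraries. *Irf9*, the DNA-binding part of ISGF3, had 0, 21 and 24 reads in the Lin- biological, 0, 0 and 3 in the technical, and 10, 3, 5 and 0 in the 4 CD11b+ libraries in order. Lin- replicate 1 thus lacked *Irf9* peaks that both other biological libraries had.

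*Irf7*, which amplifies the interferon response, had 0, 20 and 8 reads in the Lin- biological libraries, 0, 0 and 28 in the technical ones, and 6 in CD11b+ replicate 1 alone. Its site at chr7:141265284-141265391 was present in Lin- libraries 2, 3 and 6 with 12, 8 and 12 reads and in no CD11b+ library. *Stat2*, the other interferon-specific part of ISGF3, had 3, 4 and 5 reads in the Lin- biological, 0, 8 and 0 in the technical, and 14, 0, 6 and 0 in the CD11b+ libraries. The peaks of *Stat2* fell at different places, with 4 Lin- sites and 1 CD11b+ site that did not overlap. Sites in both cell types were also the minority over all genes, at 15.1%.

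The largest group, 21 genes of RNA sensing and antiviral effectors, had 12 genes with a peak in either cell type, at 47 sites. Of all 14658 genes with at least 10 normalized counts in both tables, 8068 had a peak in either, a similar share. The 21 include *Ifi44*, which at 1.02 normalized counts in CD11b+ cells does not meet that rule. *Samhd1* stood apart in CD11b+ cells, with 151 and 70 reads in the biological and 132 and 36 in the technical libraries. In Lin- cells it had 0, 6 and 20 reads in the biological libraries and no peak in the technical ones. Every CD11b+ library lay above every Lin- library for *Samhd1* reads. *Samhd1* held 54.6% of the 713 reads in CD11b+ peaks on interferon-stimulated genes and 3.92% of the 663 Lin- reads. Its mean level stood at 5156 normalized counts (percentile 95.6) in CD11b+ and 4894 (percentile 92.9) in Lin- cells, on separately normalized scales. Peaks lay at 12 *Samhd1* sites, all intronic and all found in CD11b+ cells, with 4 of them in Lin- cells too. The CA-repeat site at chr2:157101018-157101244 had 64, 29, 53 and 12 reads in the 4 CD11b+ libraries and none in Lin- cells. The site at the intron end printed above, chr2:157099498-157099561, had 18, 15, 16 and 9 reads in CD11b+ libraries and 11 in Lin- replicate 3.

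*Oas2* was the gene found in most libraries, 8 of 10. It had 0, 14 and 27 reads in the Lin- biological, 0, 11 and 19 in the technical, and 33, 12, 39 and 7 in the CD11b+ libraries, so the cell types overlapped. Its CA-rich sites at chr5:120743440-120743570 and chr5:120743616-120743788, in 1 intron, were found in 6 and 7 libraries, of both cell types. *Eif2ak2* encodes PKR, the kinase that stops translation when it meets double-stranded RNA. It had 8, 35 and 24 reads in the Lin- biological, 0, 27 and 5 in the technical, and 11, 0, 16 and 0 in the CD11b+ libraries. Its peaks did not share sites between the cell types, where 15.1% of the sites of all genes were shared. The intron-end site at chr17:78855249-78855310 had 8, 21, 11, 19 and 5 reads in Lin- libraries 1, 2, 3, 5 and 6 and no CD11b+ peak, whereas CD11b+ libraries 1 and 3 had 11 and 6 reads in the 3' UTR, at chr17:78854635-78854713.

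*Bst2* had 8, 5 and 4 reads in the Lin- biological, 0, 0 and 11 in the technical, and 6, 0, 5 and 0 in the CD11b+ libraries. Again the sites differed between the cell types, where 15.1% of the sites of all genes were shared. The Lin- site, chr8:71535771-71535878, covered a whole coding exon when merged over its 4 libraries. The peaks of Lin- libraries 1, 2 and 3 had their middle base in an intron, and that of technical library 6 did not. The CD11b+ site, chr8:71536281-71536345, lay in an intron. *Mx1*, a gene of the dynamin-like GTPase family, had 0, 0 and 41 reads in the Lin- biological, 0, 4 and 3 in the technical, and 7, 4, 11 and 0 in the CD11b+ libraries. Of its 7 sites, 6 were Lin- sites, each with a peak across a 3' splice site, and the CD11b+ site lay in an intronic repeat. *Xaf1*, a partner of the apoptosis inhibitor XIAP, had 0, 8 and 7 reads in the Lin- biological libraries, none in the technical ones and 4 in CD11b+ replicate 1 alone. *Oasl2* peaks came from Lin- libraries 3, 5 and 6, those of *Oas1a* from Lin- 3 and 6 and CD11b+ 1, and those of *Oas3* from Lin- 3 and 6. *Cxcl10* and *Mx2* had a peak in Lin- replicate 3 alone, *Ifit2* in Lin- replicate 6, *Gbp3* in Lin- replicate 2 and *Ifi35* in CD11b+ replicate 1.

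In the ISG15 and PARP systems, *Usp18*, the protease that removes ISG15 and restrains the receptor, had 0, 17 and 10 reads in the Lin- biological and 0, 7 and 8 in the technical libraries. All of them fell at chr6:121245995-121246065, in the 5' UTR next to the end of an exon, and the 1 CD11b+ peak, of 4 reads in replicate 2, lay in a CA repeat elsewhere. *Parp14*, a mono-ADP-ribosyltransferase, had 12, 3, 12 and 3 reads in the 4 CD11b+ libraries and 4 reads in Lin- replicate 6 alone, although its mean level was higher in rank in Lin- cells (percentile 72.4) than in CD11b+ cells (64.8). *Dtx3l* and *Parp9* encode partners in 1 ubiquitin ligase complex and are neighbors on opposite strands of chromosome 16. *Dtx3l* had 8 and 7 reads in the CD11b+ biological libraries and no peak in the 6 Lin- libraries, with most of its reads at a 3' UTR site that holds a CA repeat. *Parp9* had 4 and 7 reads in Lin- replicates 2 and 3 and no CD11b+ peak. *Isg15* itself, at 45.8 and 80.7 normalized counts, had no peak.

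Of the 7 interferon-inducible GTPases, 3 had a peak in either cell type. Among all genes with at least 10 normalized counts in both tables, 8068 of 14658 had one. *Igtp* and *Iigp1*, both without a peak, are among the 7 but do not meet that rule. The shares therefore do not rest on the same basis and are not read as a deficit. *Irgm1*, which directs autophagy of bacteria, had 3 and 10 reads in Lin- replicates 2 and 3 at 1 intron end, and *Gbp7* had 4 and 12 reads in CD11b+ libraries 1 and 3. Finally, *Trim30a*, a TRIM protein that damps Toll-like receptor signaling, had 5, 13 and 41 reads in the Lin- biological, 0, 0 and 14 in the technical, and 12, 0, 13 and 0 in the CD11b+ libraries. Its main site, chr7:104429349-104429418, was shared between the cell types, with 5, 13, 22 and 14 reads in Lin- libraries 1, 2, 3 and 6 and 12 and 9 in CD11b+ libraries 1 and 3. Lin- replicate 4 had a peak on *Irf1* alone, and CD11b+ replicate 4 on *Oas2*, *Parp14* and *Samhd1* alone. Most peaks were small, with a median of 5 reads in Lin- and 7 in CD11b+ cells, beside 6 and 7 over all genes.

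**Figure D4:**
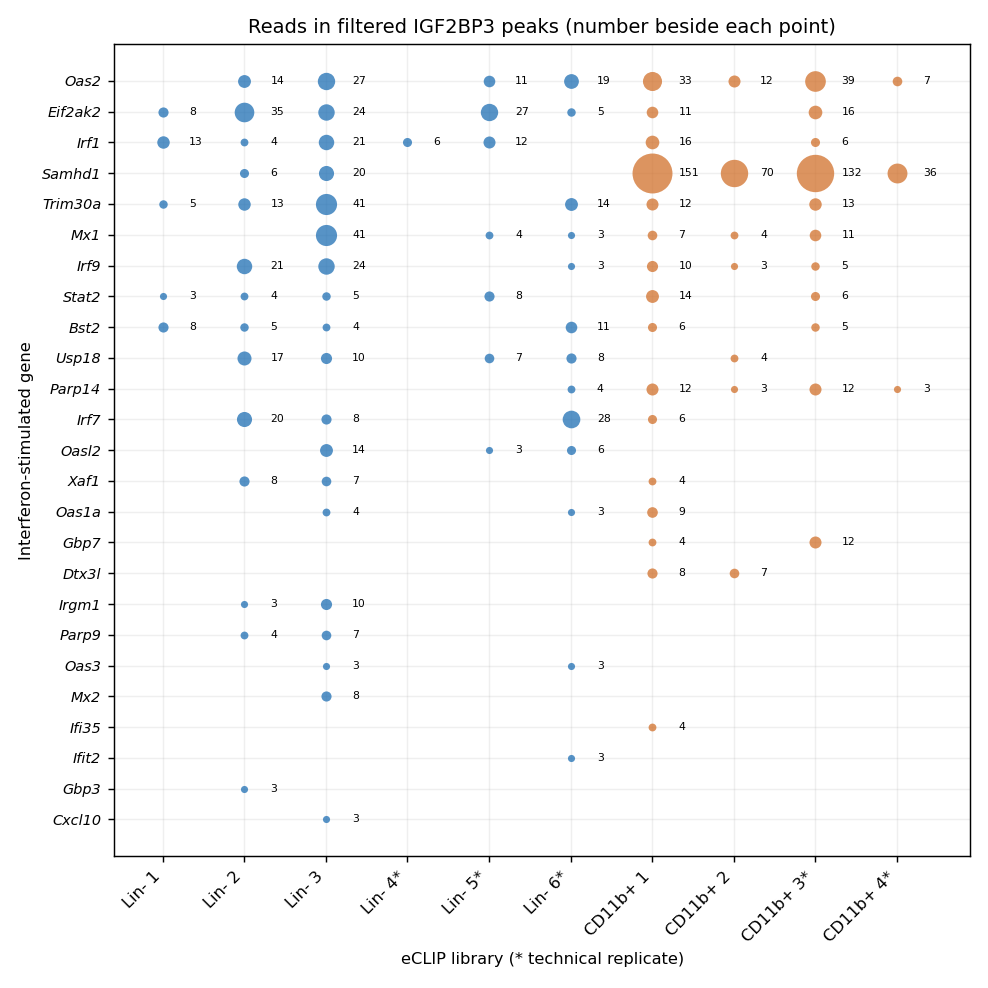
Reads in filtered IGF2BP3 peaks for the 25 interferon-stimulated genes with a peak (rows) in the 10 eCLIP libraries (columns, asterisk for technical). Point area grows with the reads, which are printed beside each point, blue for Lin- and orange for CD11b+. *Samhd1* has the largest points, 151 and 132 reads in CD11b+ libraries 1 and 3.

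Across all libraries the peaks formed 99 sites. Of these, 56 (56.6%) were found in Lin- cells alone, 31 (31.3%) in CD11b+ cells alone and 12 (12.1%) in both. Over the 32259 sites of all genes, the shares were 46.8, 38.2 and 15.1% in the same order. In 1 library each were 60 sites (60.6%), close to the 57.8% over all genes. In at least 2 biological libraries of a cell type were 18 sites, 5 of them present in both cell types. The 18 made up 18.2% of the sites, beside 21.5% over all genes. Shared sites lay on *Irf1*, *Irf7*, *Irf9*, *Oas2*, *Samhd1* and *Trim30a*. By their middle base, 87 of the 99 sites were intronic, 5 lay in coding exons, 4 in 5' UTRs and 3 in 3' UTRs, those of *Dtx3l*, *Eif2ak2* and *Parp14*, all from CD11b+ cells. In the biological libraries, 100, 86.4 and 90.9% of Lin- and 89.7 and 85.7% of CD11b+ peaks on interferon-stimulated genes were intronic. Over all genes the shares were 82.0, 60.4, 79.0, 78.9 and 85.8% in the same order. The mean difference was 13.3 ± 9.61 points (SD, n = 5, higher in 4 of 5), which did not pass the exact permutation test by sign flips (two-sided p = 0.125, adjusted p = 0.208, smallest possible p 0.062). Counting each peak that touches an exon as exonic turned the difference to -1.64 points (exact p = 0.75).

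Many of these intronic peaks reached the edge of an exon, as the printed junctions show. Merged within Lin- cells, 44 of 68 sites on interferon-stimulated genes (64.7%) ran across a splice site and 58 (85.3%) across or within 50 bases of one. Over all Lin- merged peaks, 46.3% ran across a splice site and 62.3% lay within 50 bases. In CD11b+ cells 9 of 43 sites (20.9%) ran across a splice site and 18 (41.9%) lay within 50 bases, beside 10.4% and 19.8% over all genes. Bases within 50 of a splice site made up 9.44% of the interferon-stimulated genes with Lin- peaks and 3.61% of all genes with Lin- peaks, and 10.04% and 3.05% in CD11b+ cells. The interferon-stimulated genes thus also held a larger share of bases near splice sites, and the part of this in the result was not tested. In Lin- cells, 44 of the 68 sites were near a 3' splice site and 26 near a 5' splice site, some near both. Of the 12 sites in at least 2 Lin- biological libraries, 10 ran across a splice site, and of the 7 in both CD11b+ biological libraries, 1 did, the *Samhd1* intron end. The shares among such recurrent sites of all genes were not computed.

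**Figure D5:**
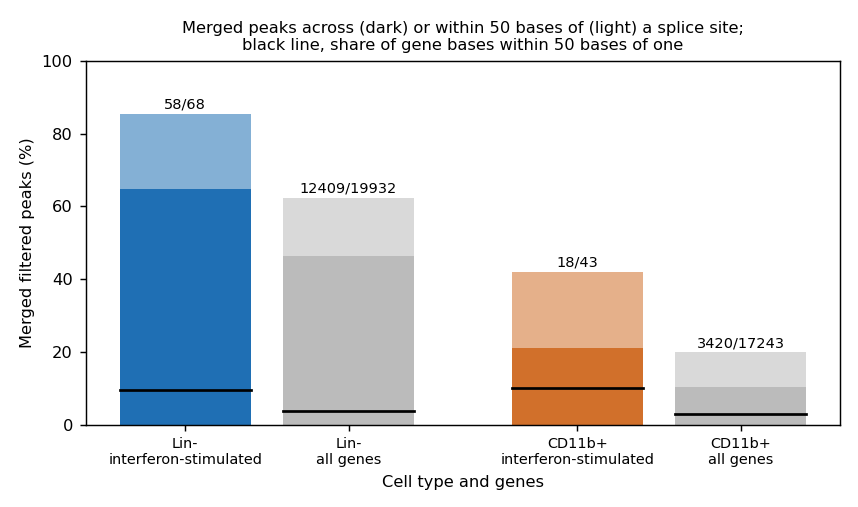
Percent of merged filtered peaks that ran across a splice site of their gene (dark) or lay within 50 bases of one (dark and light together), for interferon-stimulated genes (colored) and all genes (gray), with counts within 50 bases above the bars. Black lines give the percent of the bases of those genes that lie within 50 bases of a splice site. In both cell types the colored bar is taller, and both Lin- bars are taller than both CD11b+ bars.

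CA-rich sequence was the other feature. ACACAC or CACACA, on the strand of the transcript, was found in 8 of 43 CD11b+ sites (18.6%, Wilson 95% interval 9.74 to 32.6%, counting error only) and in 17.2% of all CD11b+ merged peaks. In Lin- cells 6 of 68 sites (8.82%, interval 4.11 to 17.9%) and 8.48% of all merged peaks held a 6-mer. Both shares were close to those of all genes. The shorter CACA, which the 6-mers contain, was found in 25.6% of CD11b+ and 23.5% of Lin- sites on interferon-stimulated genes, beside 24.1% and 21.2% of all merged peaks. Bases in lower case in the reference, which mark repeats, made up at least 50% of 24 of 43 CD11b+ sites (55.8%) and 13 of 68 Lin- sites (19.1%), beside 57.7% and 23.9% of all merged peaks. The 7 sites found in both CD11b+ biological libraries, on only 4 genes (*Dtx3l*, *Mx1*, *Oas2* and *Samhd1*), all lay mostly in repeats, and 4 of them held a 6-mer. The shares among such recurrent sites of all genes were not computed, so these counts are not read as a trait of the interferon-stimulated genes.

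The rest of the interferon pathway was taken from a list of 56 other genes. The 5 interferon genes of the list (*Ifna4*, *Ifnb1*, *Ifng*, *Ifnl2* and *Ifnl3*) had no row in either table, and 46 genes reached 10 normalized counts in each cell type. Of these, 36 (78.3%) had a peak in Lin- and 34 (73.9%) in CD11b+ cells, where all genes stood at 39.8% and 37.1%. In at least 2 biological libraries, 25 (54.3%) and 19 (41.3%) had one, beside 21.0% and 15.3% of all genes. Their median level was higher than that of the interferon-stimulated genes, at percentile 79.7 in Lin- and 76.8 in CD11b+ cells. Among all genes with 1000 or more normalized counts, 76.5% had a peak in Lin- and 68.4% in CD11b+ cells. The part of level in the pathway shares was not tested. Among receptors, peaks recurred in both cell types on *Ifnar1* and *Ifnar2*, the chains of the type I interferon receptor, and on *Il10rb*, and in Lin- cells on *Ifngr2*. *Ifnar2* had 22 CD11b+ peaks over 4 libraries and 15 Lin- peaks over 5. Among kinases and STATs they recurred in both on *Jak1*, *Tyk2* and *Stat3*. Here a peak is called recurrent when at least 2 biological libraries of the cell type had one on the gene. The kinase genes *Ikbke* and *Tbk1*, which activate IRFs, had recurrent peaks in both cell types. Among the other IRFs, peaks recurred on *Irf2* and *Irf3* in Lin- cells and on *Irf5* in CD11b+ cells.

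Among inhibitors, *Pias1* had recurrent peaks in both and *Ptpn6* and *Ptpn11* in Lin- cells. Of 17 other interferon-induced genes, *Adar*, *B2m*, *Psmb8*, *Sp100*, *Tap1*, *Trim25* and *Uba7* had recurrent peaks in both cell types, *Ifi203*, *Ifi27* and *Nlrc5* in Lin- cells, and *Pml* in CD11b+ cells. *Sp100*, a nuclear body protein, had 28 CD11b+ peaks and 9 Lin- peaks, and *Adar*, which edits double-stranded RNA, had 16 Lin- peaks and 3 CD11b+ peaks.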

How the data were processed

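RNA-seq, IGF2BP3 eCLIP and smInput libraries were grouped by their labels. For RNA-seq, the authors mapped reads to mm10 (STAR 2.5.3a, per the labels) and deposited 1 DESeq2 table per cell type. Of its columns, only the mean normalized count was used, a signal that the authors made by scaling counts with size factors and averaging over the 6 libraries, with no value per library. The other columns hold the authors' comparison of genotypes (log2 fold changes, p-values and marks of peaks) and were not used, so the genotypes were not compared and *Igf2bp3* could not be checked per library. For eCLIP, the authors trimmed, mapped and deduplicated reads and called peaks per library with CLIPper, and deposited both the full calls and those left once peaks overlapping the smInput were dropped. Per the file headers, inputs had other deduplication settings than eCLIP libraries. The last number in a peak's name was read as its reads and the fifth column, at most 0.05, as the CLIPper p, since the deposited files name neither.

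Peaks were joined to genes by the Ensembl ID in their names. Positions count from 1 on GRCm38 (mm10). Places and splice sites came from GENCODE M21 basic by a peak's middle base, and 179 of 179 peaks on interferon-stimulated genes lay inside their gene. Libraries were compared over biological replicates with exact permutation tests, two-sided, checked on simulated data, with Benjamini-Hochberg adjustment over 5 tests. Nothing says that biological replicates came from separate animals, so p-values measure the spread between these samples. No label ties a technical library to a biological one. eCLIP and smInput carry the same numbers and, by the methods, come from the same sample. Deviations of same-numbered libraries over 11286 genes correlated at -0.00906 to 0.0136. The genes, lists and measures were chosen with earlier results of these data known, and the splice-site measure, the bands of level, the shares per library and the overlap shares over all genes were added after the peaks were seen. Reads per library are given for genes with a peak in at least 2 biological libraries of a cell type, levels for the 5 highest per kb, those under 10 normalized counts and those over 20 percentile points apart. Single sites, the level of *Isg15*, *Parp14*, *Dtx3l* and *Samhd1* outside that rule, the reads of *Gbp7* and the values of single pathway genes were chosen after they were seen. Alternatives covered libraries, the smInput filter, a CLIPper p below 0.001, the gene link, annotation, ranking and motifs. Python 3.11.15, NumPy 2.4.6, pandas 2.3.3, pysam 0.24.0 and SciPy 1.17.1 were used. One gene of the pathway list is counted but not reported here by name.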

Additional observations from a re-analysis of the deposited data

Results flagged for a closer look

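Of 78 ends of groups of 4 or 6 libraries that were examined, 10 held a library set apart from the rest by more than Dixon's 95% limit, where chance alone sets apart about 1 group in 20 and counts with many zeros are set apart easily. The value given is the gap to the nearest other library divided by the whole range. For the number of interferon-stimulated genes with a peak, it was 1 for Lin- smInput 2 and 1 for CD11b+ smInput 4, each with 1 gene where the other inputs had none. For reads in Lin- peaks it was 0.902 for *Mx1*, 0.7 for *Irgm1*, 0.7 for *Samhd1* and 0.659 for *Trim30a*, all with Lin- replicate 3 as the highest library, and 1 for *Parp14*, found in Lin- replicate 6 alone. For reads in CD11b+ peaks it was 1 for *Irf7* and 1 for *Xaf1*, found in CD11b+ replicate 1 alone, and 1 for *Usp18*, found in CD11b+ replicate 2 alone.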

How the results depend on the processing

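Of 63 alternatives, 33 kept the direction and the side of the threshold or, for counts and shares, stayed close to the value reported. The median percentile of the genes, 37.3 in Lin- and 46.9 in CD11b+ cells, was 60.3 and 64.1 with every gene of the table ranked and 31.8 and 42.4 per kb of exon. The number of genes with a peak fell from 22 to 13 in Lin- and from 17 to 6 in CD11b+ cells when at least 2 biological libraries were required, and to 14 and 11 with a deposited p below 0.001. Leaving out each biological library gave 14 (without Lin- replicate 3) to 20 and 7 (without CD11b+ replicate 1) to 16 genes. The difference between cell types, CD11b+ minus Lin-, ranged from -5.67 to 3.33 genes and from -0.133 to 0.106 points. It turned to 2 genes and 0.0600 points without Lin- replicate 3 and to 3.33 genes and 0.106 points without CD11b+ replicate 2. Between eCLIP and smInput, the replicate block kept the differences of 12 genes and 0.233 points at an exact permutation p of 0.062, and leaving out each number gave 10.25 to 13.75 genes and 0.193 to 0.261 points at exact p of 0.05 to 0.0556. These are the smallest p those designs allow. The intronic difference was -1.64 points with exon-touching peaks counted as exonic, 15.2 points over all 10 libraries (exact permutation p = 0.00391, technical libraries counted as separate) and 10.1 to 16.7 points with a library left out. With the shorter CACA, 23.5% of Lin- sites held the motif, and with 1 mismatch 86.7% of promoters held a pair of boxes, beside 35.7% of all promoters. Apart from these constructions, the causes were not tested. Read depth is unknown, so no limit for genes without a peak can be given.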
